A study of Mus musculus with 8 samples.

Results

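Nodal, Lefty1, Lefty2, Cer1, Fst and Gdf11 encode secreted proteins: ligands of the transforming growth factor beta (TGF-beta) family and proteins that block such ligands. The 6 genes were taken by name as the Nodal, Lefty and secreted modulator genes of this family. Each was read by 1 of the 41174 non-control probes of the array, and all 6 probes were among the 21905 that were bright enough to be tested. The series compared Cdx2 null mutant with wild type mouse embryos of the strain C57Bl6J/CBA at 4/5 and at 7/8 somites, on Agilent arrays with 2 colours. Cdx2 is a caudal type homeobox gene of the posterior embryo, and the labels do not describe how the null allele was made. Tissue behind the last somite boundary, as far as the base of the allantois, was pooled from 20 embryos per genotype and stage, which gave 4 pools.

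Nodal is a ligand that first induces mesoderm and endoderm and later, around the node and in the left lateral plate mesoderm, sets left-right asymmetry. It binds activin receptors together with a co-receptor and signals through Smad2 and Smad3 to induce its own gene and the Lefty genes. Lefty1 and Lefty2 are secreted inhibitors of Nodal, made mainly in the midline and in the left lateral plate. Cer1 encodes Cerberus-like, a secreted inhibitor of Nodal and bone morphogenetic proteins that is expressed in anterior endoderm and later in the anterior presomitic mesoderm and newest somites. Fst encodes follistatin, which binds activins and related ligands, and Gdf11 is a ligand of the tail bud region that patterns the trunk to tail transition.

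The probes below are those that read the 4 genes on which the results turn. Each line gives the leading 30 bases of a 60-base probe, 5′ to 3′, in lower case because no part of it is singled out. The Lefty1 and Lefty2 pair matters most, since the genes are close paralogues and a shared sequence would mix their signals.
Nodal: ttattagattataaacgagccatttggttc
Lefty1: ctttcatgcaaatctgaagtgctcattata
Lefty2: ttgtcctaacttagtgctctcgtcagacct
Cer1: agacgaaatcttctactcgtatgcttttga
The Lefty1 and Lefty2 probes shared no run longer than 7 bases, and over the 15 pairs of the 6 probes the longest shared run was 5 to 10 bases. No other probe of the array shared 20 bases in a row with any of them. Probes were compared only with probes. A match of the Lefty1 probe to the Lefty2 transcript, or the reverse, was not searched, so mixing of their signals was not tested. On build mm9 the files place the Nodal probe at chr10:60887790-60887849 (+ strand), Lefty1 at chr1:182868137-182868196 (+) and Lefty2 at chr1:182827977-182828036 (+). They place Cer1 at chr4:82527731-82527790 (- strand), Fst at chr13:115244692-115245364 (-) and Gdf11 at chr10:128322284-128322343 (-). The Fst probe spans 673 bases of genome with 60 bases of sequence, so it reads across a splice junction. Exon and UTR boundaries on mm9 were not used here.

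Each stage had 4 arrays, all carrying the same null and wild type pools, with Cy3 on null on 2 of them and Cy5 on null on 2, so array spread is technical. All values are log2 ratios of null over wild type, where 1 is a 2-fold difference and a negative value means lower in the null pool. The scanner marked 46.5% to 58.9% of a channel's probes as well above background. Correlations were taken across probes, which are not independent. Arrays of a stage correlated at r = 0.856 to 0.918 if their dye order matched and at 0.477 to 0.516 if it was swapped. Arrays of different stages correlated at 0.498 to 0.591 if their dye order matched and at 0.235 to 0.307 if it was swapped. Arrays with matched dyes but different pools were thus about as alike as arrays with the same pools but swapped dyes. All of them share the comparison of null with wild type. Cdx2 itself was lower on every array (-1.61 to -1.10, mean -1.39, SE 0.09, adjusted p = 1.65e-07). All 13 tail bud genes checked, Tbx6, Msgn1, Wnt3a and Fgf8 among them, were well above background in wild type on all 8 arrays. Of 8 genes of the anterior embryo, 5 (Otx2, Six3, Hesx1, En1 and Emx2) were too dim to be tested. Lhx2, Pax6 and Dlx5 were well above background on all 8 arrays in both genotypes, so transcripts of this list were not wholly absent. They did not pass the test (median 0.13, mean level per array 6.83 to 6.98 in wild type and 7.07 to 7.22 in null at 4/5 somites).

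Over both stages, Cer1 rose in the null pools and Lefty1 and Lefty2 fell, while Nodal, Gdf11 and Fst did not pass the test. The 3 genes that passed compare with 1845 of all 21905 probes (8.42%; 4.94% higher and 3.48% lower in null). The test was limma's on 1 value per stage, so its adjusted p-values measure the spread between pools of the 2 stages and rest largely on a spread shared by all probes. The pattern differed by stage for most of the 6: Cer1, Lefty1 and Lefty2 stood furthest from 0 at 4/5 somites, Nodal at 7/8 somites. In bulk tissue, fewer cells of a type and less RNA per cell cannot be told apart.

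**Figure D1:**
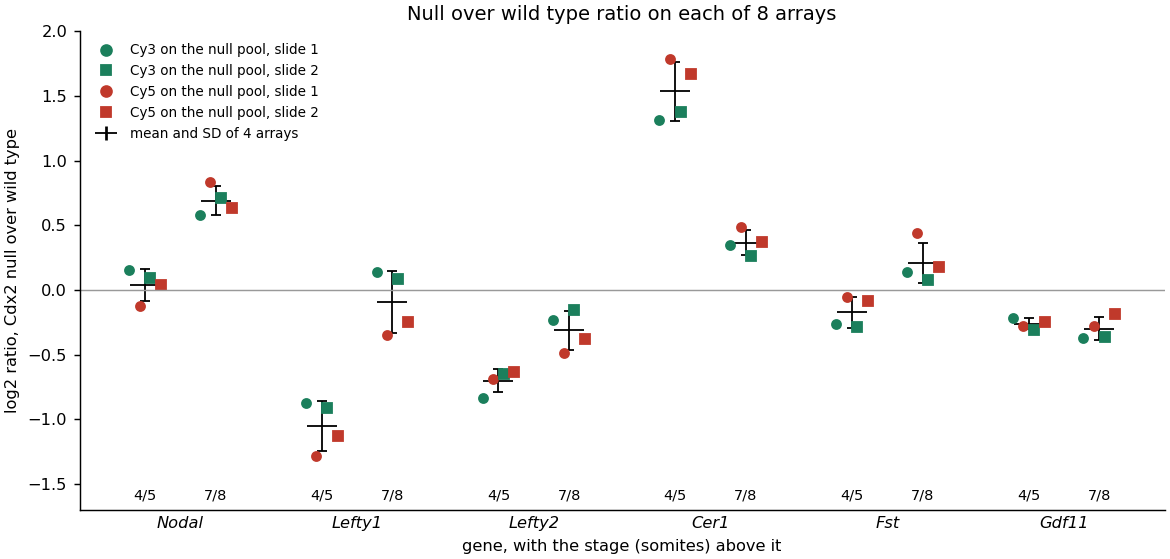
Log2 ratio of null over wild type (y axis) on each of 8 arrays for the 6 genes at 4/5 and 7/8 somites (x axis); colour gives the dye on the null pool, shape the slide, and the black bars the mean and SD of 4 arrays. Cer1 lies at 1.32 to 1.79 at 4/5 somites and at 0.26 to 0.49 at 7/8 somites, Lefty1 goes from at most -0.87 to both sides of 0, and Nodal goes from around 0 to at least 0.58.

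Nodal, the ligand, differed between genotypes at the later stage. Its log2 ratio on arrays 1 to 4 was 0.16, -0.13, 0.09 and 0.04 at 4/5 somites and 0.58, 0.84, 0.71 and 0.63 at 7/8 somites. The 4 early values lie on both sides of 0, all 4 late values lie well above it, and the stages do not overlap. The mean was 0.04 ± 0.12 (SD, n = 4 arrays) at 4/5 and 0.69 ± 0.11 at 7/8 somites, where null was 1.61-fold higher. At 7/8 somites Nodal was among the 469 probes (2.14%, and 1.21% on the higher side) with a mean at least 1.5-fold different and 1 sign on all 4 arrays. None of the 6 genes was among the 91 (0.415%) with a 2-fold different mean. Over both stages Nodal did not pass (mean 0.36, SE 0.12, adjusted p = 0.0689). Over 22 other settings that could change a call (the fit with slide as a block, which holds technical spread only, is not counted), Nodal passed in 5, among them the fit with the brightest probe of each gene only (adjusted p = 0.0385) and the fit without array 1 of 4/5 somites (adjusted p = 0.0253), with adjusted p from 0.0129 to 0.385 over the 22.

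Lefty1, the midline inhibitor, was lower in the null pool at 4/5 somites. The ratios on arrays 1 to 4 were -0.87, -1.29, -0.91 and -1.13 at 4/5 somites and 0.14, -0.34, 0.08 and -0.25 at 7/8 somites. Every early value lies below every late value, and the values of both stages follow the dyes. The mean with Cy3 on the null pool was -0.89 at 4/5 and 0.11 at 7/8 somites, against -1.21 and -0.30 with Cy5. The stage means were -1.05 ± 0.19 (SD, n = 4 arrays), a 2.07-fold lower level in null, and -0.09 ± 0.24. With Cer1 it was among 64 probes (0.292%) with a mean at least 2-fold different and 1 sign on all 4 arrays of 4/5 somites. It was 1 of 30 (0.137%) on the lower side. At 7/8 somites only 1 of 4 arrays in each genotype read it well above background, so that stage gives little information on its ratio. Lefty1 fell over both stages (mean -0.57, SE 0.15, adjusted p = 0.0218), which rests on the 4/5 somite value. This call was lost when any 1 of 6 of the 8 arrays was left out (arrays 2 and 4 of 4/5 somites and each array of 7/8 somites, adjusted p = 0.0537 to 0.202), and in 12 of the 22 settings in all (adjusted p from 0.000223 to 0.750). The scanner's processed signals gave a mean of -1.13 (adjusted p = 0.00434), with -1.85 at 4/5 and -0.42 at 7/8 somites.

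Lefty2, the lateral plate inhibitor, was lower in null at both stages. Its ratios were -0.83, -0.69, -0.65 and -0.64 on arrays 1 to 4 of 4/5 somites and -0.23, -0.49, -0.15 and -0.37 at 7/8 somites. All 8 values lie below 0, and the 4/5 somite values all lie further from it. Of all probes 18.6% had 1 sign on the 8 arrays, Lefty2, Cer1 and Gdf11 among them. The means were -0.70 ± 0.09 (SD, n = 4 arrays; 1.62-fold lower in null) and -0.31 ± 0.15 (1.24-fold lower). Lefty2 fell over both stages (mean -0.51, SE 0.10, adjusted p = 0.00315), the call of these genes that held in the most settings (17 of 22, adjusted p from 4.69e-05 to 0.121). Leaving out array 2 of 7/8 somites gave -0.48 with adjusted p = 0.0544. With Lefty1 and Cer1 it was among 444 probes (2.03%) at least 1.5-fold different at 4/5 somites.

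Cer1, the Nodal and BMP inhibitor, showed the largest ratio of the 6 genes. It read 1.32, 1.79, 1.37 and 1.67 on arrays 1 to 4 of 4/5 somites and 0.35, 0.49, 0.26 and 0.37 at 7/8 somites. Null was higher on all 8 arrays, and the lowest early value stands far above the highest late value. The means were 1.54 ± 0.23 (SD, n = 4 arrays; 2.90-fold higher in null) and 0.37 ± 0.09 (1.29-fold). The 4/5 somite mean was 1.34 with Cy3 and 1.73 with Cy5 on the null pool. At 4/5 somites 34 probes (0.155%) were at least 2-fold higher in null, Cer1 among them. Cer1 rose over both stages (mean 0.95, SE 0.17, adjusted p = 0.00168), and its wild type level at 7/8 somites was well above background on 2 of 4 arrays. The call was lost without array 2 of 4/5 somites (0.91, adjusted p = 0.0589) or without array 2 of 7/8 somites (0.93, adjusted p = 0.0573), and in 8 of the 22 settings in all (adjusted p from 7.61e-08 to 0.674). The log ratios of the series matrix gave a mean of 1.64 (adjusted p = 4.91e-06) with 2.17 at 4/5 and 1.11 at 7/8 somites, so the size of the late ratio (1.29-fold as reported, 2.16-fold there) is not settled.

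Fst, the activin-binding protein gene, had ratios near 0. They were -0.27, -0.05, -0.29 and -0.09 at 4/5 somites and 0.14, 0.44, 0.08 and 0.18 at 7/8 somites, all below 0 at the earlier and all above 0 at the later stage. The means were -0.17 ± 0.12 (SD, n = 4 arrays) and 0.21 ± 0.16, and over both stages Fst did not pass (0.02, SE 0.10, adjusted p = 0.956). The sign of this mean turned in 4 of 22 settings, so it has no settled direction. By dye, Cy3 and Cy5 on the null pool gave Fst means of -0.28 and -0.07 at 4/5 and 0.11 and 0.31 at 7/8 somites. Gdf11, the posterior patterning ligand, read -0.21, -0.28, -0.31 and -0.24 at 4/5 and -0.37, -0.28, -0.37 and -0.19 at 7/8 somites. All 8 values were small and below 0, and the stages overlap. The means were -0.26 ± 0.04 and -0.30 ± 0.09 (1.23-fold lower in null). Gdf11 narrowly missed the threshold over both stages (mean -0.28, SE 0.08, adjusted p = 0.0510). It passed in 7 of 22 settings, among them the brightest probe of each gene (adjusted p = 0.0358), the processed signals, which gave -0.65 (-0.57 and -0.74 at the stages, adjusted p = 0.00390), and the fit without array 1 of 4/5 somites (adjusted p = 0.0368), with adjusted p from 0.000498 to 0.203 over all 22.

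The difference of the ratios between stages was larger for the inhibitors Cer1 and Lefty1 than for the other 4 genes. It was -1.17 for Cer1 (7/8 minus 4/5 somites), the 12th largest in size of 21905 probes, and 0.96 for Lefty1, the 20th. The Lefty1 value is uncertain, since its late ratio is mostly not measured well above background, and processed signals gave 1.43 for Lefty1 and -1.09 for Cer1. Nodal followed with 0.65 (rank 170), Lefty2 with 0.39 (1215), Fst with 0.38 (1275) and Gdf11 with -0.04 (18085). Only 229 probes (1.05%) had non-overlapping arrays and a 1.5-fold or larger distance of the stage means, among them Cer1, Lefty1 and Nodal, and only 14 (0.0639%) were 2-fold apart, among them Cer1. Without a size limit 4003 probes (18.3%) did not overlap, among them all of the 6 but Gdf11. With 1 pool per genotype and stage these differences have no test.

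The channel levels show which genotype moved between the stages. They are log2 values on an arbitrary brightness scale, comparable between pools for 1 probe but not between genes. Nodal in wild type read 9.46 to 9.64 at 4/5 and 7.94 to 8.20 at 7/8 somites, a change of -1.46 (2.74-fold lower). In null it read 9.51 to 9.65 and 8.66 to 8.90, a change of -0.81 (1.75-fold lower). The genotypes overlap at 4/5 somites and stand apart at 7/8 somites, where wild type is the lower.

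Lefty1 in wild type read 7.86 to 7.99 at 4/5 and 6.31 to 6.56 at 7/8 somites, where most arrays were not well above background. In null it already read 6.58 to 7.01 at 4/5 somites and then 6.22 to 6.45. The wild type change was -1.48 (2.79-fold lower) and the null change -0.52 (1.44-fold), both ending near the detection limit, so neither fold is exact. Lefty2 went from 8.79 ± 0.08 (SD, n = 4 arrays) to 8.42 ± 0.16 in wild type and from 8.09 ± 0.13 to 8.11 ± 0.02 in null. Its null level lay below the wild type level at both stages and differed by 0.02 between them, less than the array spread.

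Cer1 had the opposite order. Wild type read 7.29 to 7.54 at 4/5 and 6.65 to 6.73 at 7/8 somites (change -0.72, 1.65-fold lower, a fold that is not exact because 2 of the 4 late arrays were not well above background), and null read 8.85 to 9.12 and 6.99 to 7.19 (change -1.89, 3.70-fold lower). The null change was the lowest of all 21905 probes, and the wild type change ranked 120 from the lowest. Fst was lower at 7/8 somites in both genotypes. It read 9.38 ± 0.09 and 7.71 ± 0.07 at the stages in wild type (3.18-fold lower, the third lowest change) and 9.20 ± 0.17 and 7.91 ± 0.15 in null (2.44-fold lower). Gdf11 read 7.04 ± 0.09 and 7.10 ± 0.07 in wild type and 6.78 ± 0.12 and 6.80 ± 0.13 in null.

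**Figure D2:**
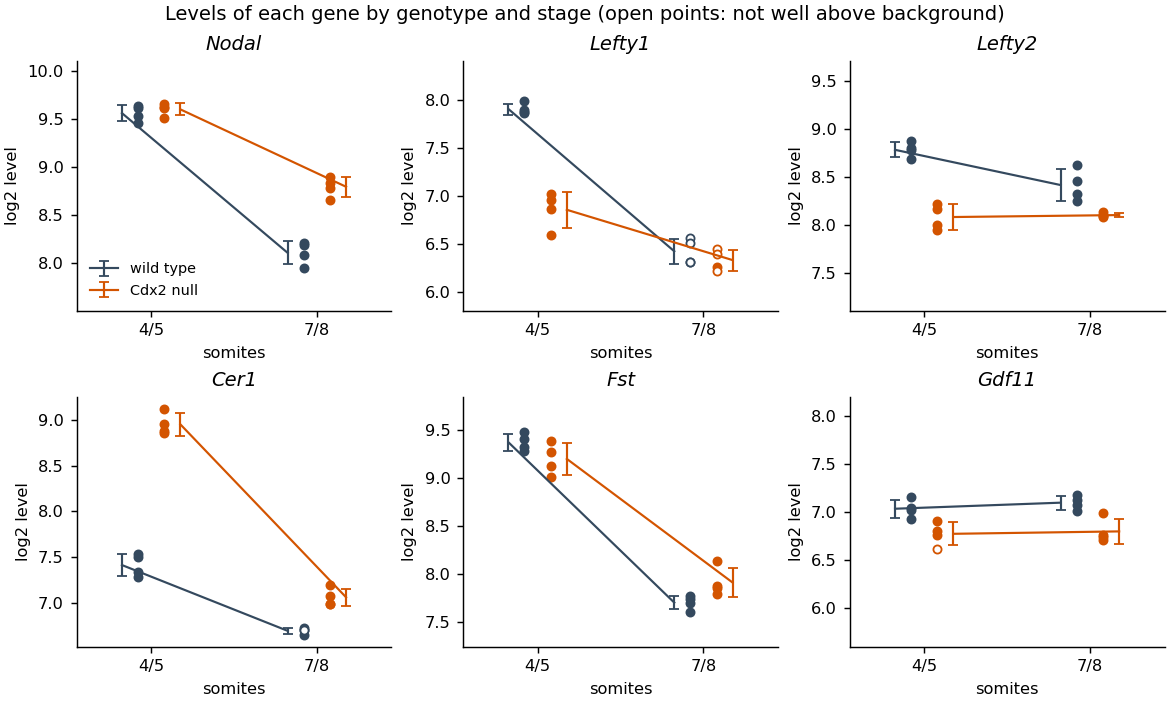
Log2 channel level (y axis) of the 6 genes in wild type and null pools at 4/5 and 7/8 somites (x axis). Points are single arrays, bars the mean and SD of 4 arrays, and open points are not well above background. Nodal, Lefty1 and Fst change by -1.46, -1.48 and -1.67 in wild type, Cer1 changes most in null (-1.89), and Gdf11 lies flat in both genotypes.

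In wild type only 26 probes (0.119%) were at least 2-fold lower at 7/8 than at 4/5 somites with no overlap of arrays, and 3 of them were Nodal, Lefty1 and Fst. Another 15 (0.0685%) were 2-fold higher, with none of the 6 genes among them. In null, again 26 probes (0.119%) were 2-fold lower, among them Cer1 and Fst, and 25 (0.114%) higher, with none of the 6. The normalization sets all arrays to the same overall brightness, so these changes are relative to the other probes. The changes of Nodal, Lefty1, Cer1 and Fst had the same sign within each slide in both genotypes, for example -1.53 and -1.38 for Nodal in wild type on slides 1 and 2 and -1.89 and -1.88 for Cer1 in null. These stage differences compare 1 pool with 1 pool and have no test.

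**Figure D3:**
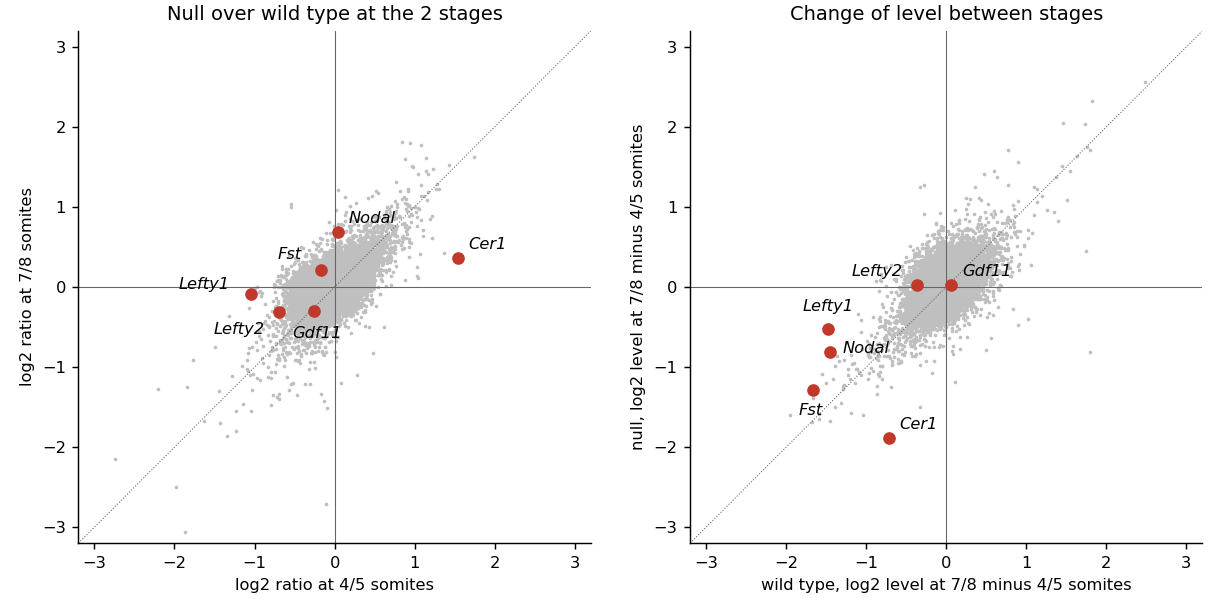
Each grey point is 1 of 21905 probes and the 6 genes are red. The left panel plots the log2 ratio of null over wild type at 7/8 against 4/5 somites, where Cer1, Lefty1 and Nodal lie off the dotted line of equal values. The right panel plots the change of log2 level from 4/5 to 7/8 somites in null against wild type, where Cer1 lies lowest in null and Fst, Lefty1 and Nodal lie far to the left (2 probes fall outside its axes).

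Other genes of the Nodal, activin and TGF-beta branch passed the same test about as often as all probes. Of 49 genes listed, 41 were measured, 1 rose, 3 fell and 37 did not pass. The 4 that passed are 9.76% of the 41, against 8.42% of all probes, with a median of 0.00 against -0.01 for all probes. Among the 5 measured ligands Gdf1, the partner with which Nodal forms active dimers, fell (mean -0.36, SE 0.09, adjusted p = 0.0140), and so did Tgfb2 (-0.51, SE 0.09, adjusted p = 0.00106). Gdf3, Inhba, Inhbb and Mstn were too dim to be tested. Of 7 measured receptors and co-receptors none passed by limma, and 1 had an unadjusted p under 0.05. The Nodal co-receptor genes Tdgf1 and Cfc1 read 0.00 and -0.07. Acvr2b, an activin receptor gene, read -0.39 ± 0.41 (SD, n = 4 arrays) at 4/5 and -0.02 ± 0.15 at 7/8 somites. Its early mean is no larger in size than its array spread (limma over both stages, adjusted p = 0.231).

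Among 13 secreted or membrane modulators and processing enzymes, 1 rose and 1 fell. Ltbp3, which encodes a protein that binds latent TGF-beta, rose (0.64, SE 0.08, adjusted p = 0.000117), but its other probe read 0.02. Pcsk5, which encodes a protease that cleaves precursors of this family, fell (-0.46, SE 0.08, adjusted p = 0.00205), and its other probe read -0.03. The direction of both genes therefore rests on 1 of 2 probes. Dand5, a Nodal inhibitor gene of the node and the closest relative of Cer1 in this list, read -0.11 at 4/5 and 0.09 at 7/8 somites (mean -0.01). Of 12 intracellular effectors none passed, and 2 had an unadjusted p under 0.05, with Smad2 at 0.00, Smad3 at 0.11, Foxh1 at -0.13 and Tgif2 at 0.28 (adjusted p = 0.0514).

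Of 4 measured target genes none passed by limma, and 2 had an unadjusted p under 0.05. Mixl1, a primitive streak target, read -0.48 ± 0.05 and 0.12 ± 0.08 (mean -0.18, adjusted p = 0.405), and Gsc 0.08 and -0.20. Lhx1 read 0.10 and 0.39, and Isl1 -0.04 and -0.44. These last 2 are the ones with an unadjusted p under 0.05, and their means lie on opposite sides of 0 (0.25 and -0.24). Eomes and Pmepa1 were too dim to be tested.

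**Figure D4:**
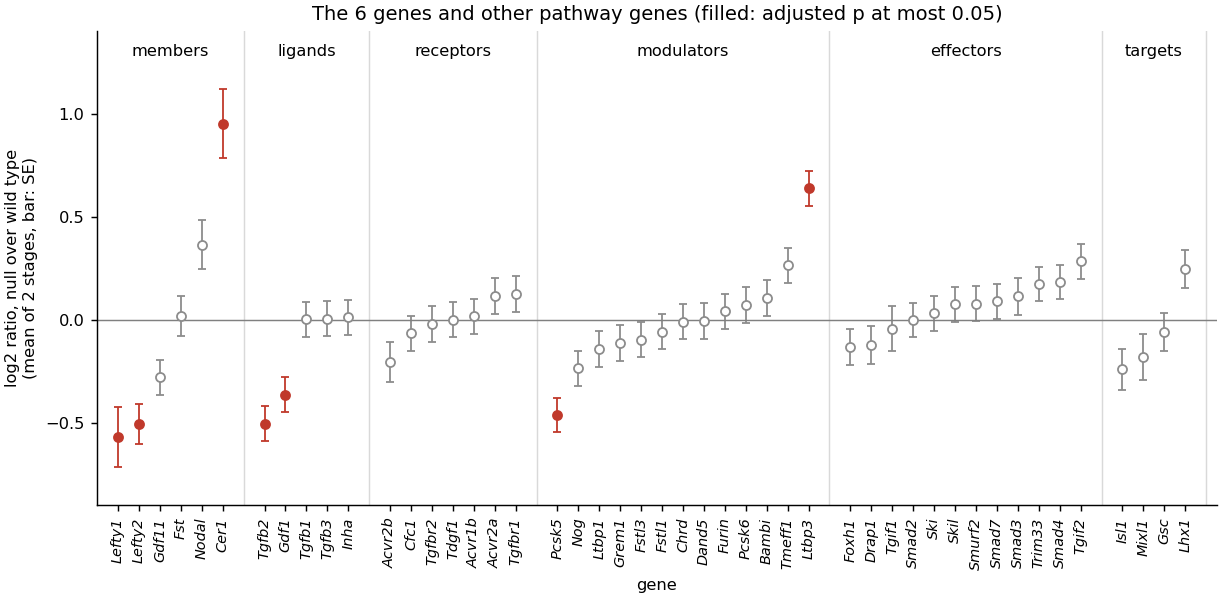
Mean log2 ratio of null over wild type over both stages (y axis, bars are SE) for the 6 genes and the 41 measured pathway genes by role (x axis), filled red where the adjusted p was at most 0.05. Cer1 and Ltbp3 stand above the others, and Lefty1, Lefty2, Tgfb2, Pcsk5 and Gdf1 below.

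Markers of the cell types that express these genes are given beside them, and their counts are to be read against the 8.42% of all probes that passed (4.94% higher and 3.48% lower in null). Of 10 measured node and notochord genes, beside which Lefty1 is read, Shh (-0.60, adjusted p = 0.000221), Tekt1 (-0.68) and Cfap126 (-0.37) fell, and Sox9 rose (0.34). Its median ratio was -0.24 (4/5 somites) and -0.08 (7/8 somites), and its mean level was 8.71 to 8.81 in wild type and 8.44 to 8.52 in null at 4/5 somites, then 8.59 to 8.67 and 8.43 to 8.51. Among defining markers Foxa2 read -0.13 and T -0.34 (adjusted p = 0.0657), while Foxj1 passed background on only 3 of 8 arrays in each genotype. For Lefty2, 8 of 9 lateral plate genes were measured, of which Osr1 (-0.78) and Bmp4 (-0.49) fell and none rose. The 6 that did not pass were Hand1 (0.27), Gata4 (0.06), Foxf1 (-0.03), Hand2 (-0.12), Prrx1 (-0.18) and Isl1 (-0.24). The lateral plate list had a median of -0.04 and -0.22 at the stages, a mean level of 8.27 to 8.34 in wild type and 8.08 to 8.16 in null at 4/5 somites, and 8.38 to 8.48 and 8.22 to 8.28 at 7/8 somites. The part of node, notochord or lateral plate cells in the Lefty values was not tested.

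Cer1 is read beside anterior presomitic mesoderm and somite genes. Of 10 measured, 7 rose and none fell, with median ratios of 0.83 (4/5 somites) and 0.20 (7/8 somites). By limma 9 had an unadjusted p under 0.05, but not all in the same direction. Epha4 is among the 9 and had a mean below 0 (-0.22), with 4 arrays on each side of 0. Dmrt2 (1.05) and Meox1 (0.92), both transcription factor genes of the somite, are the largest. The list's mean level was 8.75 to 8.78 in wild type and 9.41 to 9.52 in null at 4/5 somites, and 8.75 to 8.79 and 9.05 to 9.11 at 7/8 somites, so the wild type levels overlap between stages and the null levels do not. Pax3 and Tbx18 were too dim to be tested. Of 12 visceral endoderm genes 5 rose, led by Cubn (1.18) and Amn (0.97), and Cited1 fell (-0.59), with medians of 0.39 and 0.09 and mean levels of 10.40 to 10.48 and 10.77 to 10.85 (wild type and null) at 4/5 and 9.88 to 9.95 and 10.14 to 10.18 at 7/8 somites. Of 11 definitive endoderm genes 4 rose, among them Spink1 (0.74) and Sox17 (0.58), and Krt19 fell (-1.37), with medians of 0.06 and 0.08 and mean levels of 9.68 to 9.75 and 9.66 to 9.74 at 4/5 and 9.48 to 9.52 and 9.56 to 9.62 at 7/8 somites. Of the 13 tail bud genes Cyp26a1 (-0.82), Cdx4 (-0.74) and Msgn1 (-0.60) fell and none rose, with medians of -0.36 and 0.13 and mean levels of 10.73 to 10.76 and 10.29 to 10.35 at 4/5 somites, and of up to 10.61 and 10.54 to 10.59 at 7/8 somites. The part of these cell types in the Cer1 value was not tested.

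The genes whose ratios over the 8 arrays were most like those of a called gene were found by the root mean square difference of log2 ratios. For Cer1 they were Pcdh8, a protocadherin gene of the presomitic mesoderm (difference 0.24, with ratios of 1.37 and 0.42 at the stages), Meox1 (0.32, with 1.22 and 0.62) and Kynu (0.36, with 1.07 and 0.41). For Lefty1 they were the Wnt ligand gene Wnt5b (0.18, with -0.87 and -0.22), the ETS factor gene Etv4 (0.24, with -1.07 and -0.26) and Pygo2 (0.24, with -0.75 and 0.02). For Lefty2 they were G3bp2 (0.09, with -0.65 and -0.25), Noc2l (0.09, with -0.73 and -0.23) and Mllt3 (0.14, with -0.61 and -0.35).

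Promoters of Nodal, Cer1 and Gdf11 are in the RefSeq table of build GRCm38.p6, so 3 of the 6 matched. The 250 bases before the start of transcription are shown for Cer1, which had the largest ratio, and for Gdf11, which alone held letters of a CDX site. Both lie on the - strand, at chr4:82885152-82885401 for Cer1 and chr10:128891719-128891968 for Gdf11, and are written 5′ to 3′ with motif matches in capitals.
Cer1: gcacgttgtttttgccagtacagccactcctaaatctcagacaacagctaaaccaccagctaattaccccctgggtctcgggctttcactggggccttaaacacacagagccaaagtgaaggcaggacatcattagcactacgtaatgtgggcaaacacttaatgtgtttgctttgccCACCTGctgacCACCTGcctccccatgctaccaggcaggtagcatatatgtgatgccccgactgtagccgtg
Gdf11: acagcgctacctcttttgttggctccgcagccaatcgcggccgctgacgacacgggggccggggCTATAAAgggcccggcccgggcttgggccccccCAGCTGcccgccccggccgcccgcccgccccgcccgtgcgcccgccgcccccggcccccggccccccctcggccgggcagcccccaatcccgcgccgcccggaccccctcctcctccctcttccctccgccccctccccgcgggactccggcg
The motifs searched on both strands were TTTATNG for CDX factors (in 9.81% of 32851 promoters of this length), AATNCACA for FOXH1 (3.18%), CANNTG, the E-box of basic helix-loop-helix factors (66.2%), and AGGTGNGA for T-box factors (4.66%). Cer1 held 2 E-boxes that begin 72 and 61 bases before the start. Gdf11 held 1 CDX match on the opposite strand, beginning 186 bases before the start, and 1 E-box at 153. The CDX match of Gdf11 contains TATAAA, the usual core of a TATA box, and so has a second reading. Nodal held none of these letters in its window. GC content was 51.6% for Cer1 and 81.2% for Gdf11. A match describes letters and is no evidence of binding.

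The direction of the mean over both stages was the same in 22 of 22 other settings for Nodal, Lefty1, Lefty2, Cer1 and Gdf11, whereas their calls changed with the setting. The mean ranged over these settings from 0.75 to 1.64 for Cer1, from -1.14 to -0.39 for Lefty1, from -0.64 to -0.42 for Lefty2, from 0.32 to 0.46 for Nodal and from -0.66 to -0.18 for Gdf11. Some of the 22 could not turn a direction, since they left each of these means as it was. They are both other filters on dim probes, outlier spots kept, the brightest probe of each gene, and eBayes with trend and robust options.

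**Figure D5:**
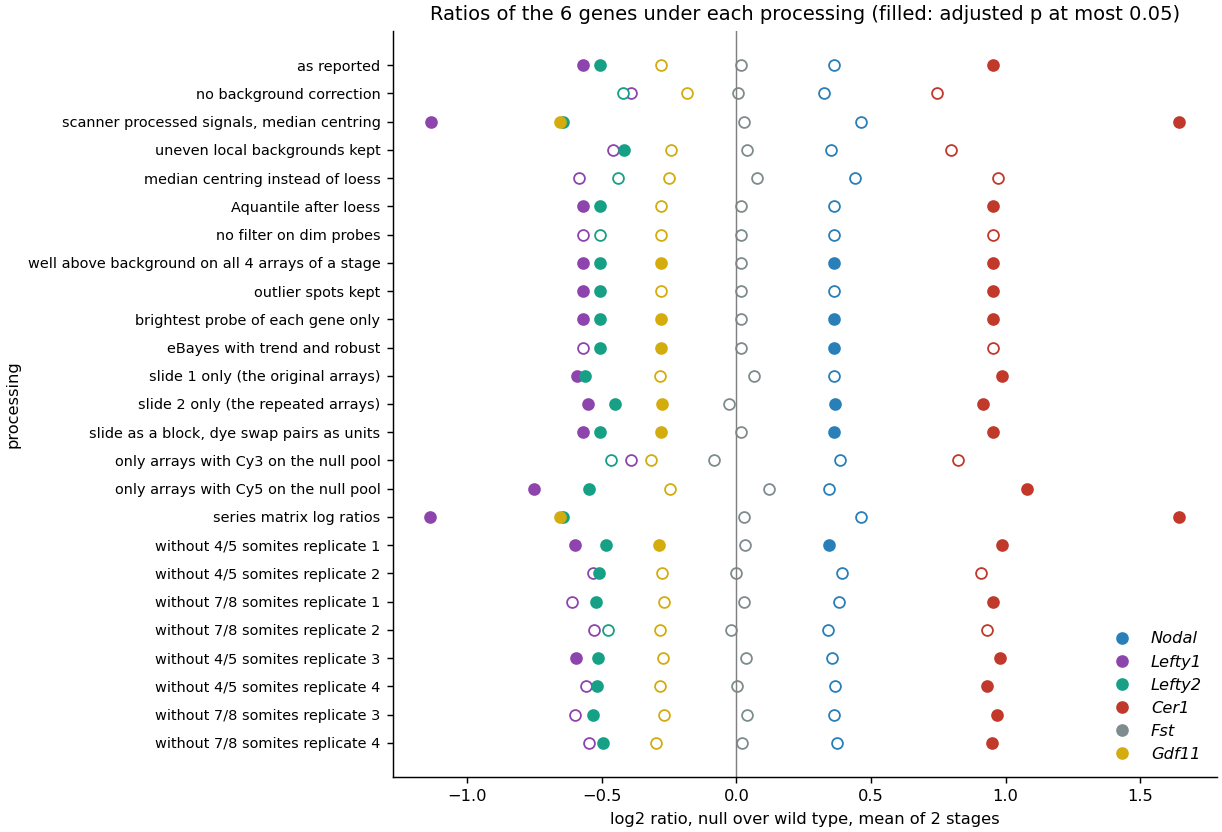
Log2 ratio of null over wild type, mean of both stages (x axis), for the 6 genes under each processing (y axis, the reported one on top), filled where the adjusted p was at most 0.05. Each gene but Fst stays on 1 side of 0, and each but Fst is filled under some settings and open under others.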

How the data were processed

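The posterior part of mouse embryos was measured on 8 arrays with 2 colours, 4 per stage. The deposited scanner files hold spot and background intensity per the file headers, with no normalization. Their log10 ratio and processed signal intensity were made by Agilent Feature Extraction (9.5.3 per the submitters' processing notes, 10.5.1.1 per the file headers), and other columns per the file headers are flags. The deposited series matrix holds the same log10 ratios, turned to null over wild type by the labels' dyes, at 45018 of 45018 spots on every array (tolerance 1e-05). An aligner does not apply, and probe positions were used as listed in the files (build mm9).

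Normexp (offset 50) and within-array loess were run on the intensities in limma 3.58.1 (R 4.3.3; data.table in version 1.17.8), with control spots at weight 0. Spots marked for an uneven background (58 on array 1 of 4/5 somites, at most 38 on others) received their array's median background. Outlier spots (1184, 0.341%) were left out, and no spot was saturated. Of 41174 probes, 21905 were kept because 1 genotype was well above background on at least 3 of 4 arrays of a stage. RefSeq accessions of GRCm38.p6 named 25097 probes (16873 of those kept). Levels are channel values after Aquantile.

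Arrays of the same 2 pools were averaged, and the 2 stage values of each probe were tested against 0 with lmFit and eBayes (1 residual and 14.92 prior degrees of freedom, prior SD 0.123), two-sided, with Benjamini-Hochberg adjustment over all kept probes and a threshold of 0.05. The procedure was tested on simulated data. The number of arrays limits the technical precision, and the test itself is limited by having 1 pool per genotype and stage. Within a stage, and between stages, values were compared by the size of the mean (1.5-fold or 2-fold, with 1 sign or no overlap of arrays) with no test.

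The 6 genes and all gene lists were chosen with earlier results of these data known. Named are the 6 genes, the 3 genes most like each that was called or at least 1.5-fold different on all arrays of a stage, up to 4 called genes per pathway list and 2 per marker list, and genes that define a list; other list genes were named after their values were seen. In lists, the brightest kept probe stood for a gene. Slide, dye order, background, centring, filter, probe choice, prior and single arrays were varied. Some genes of the lists are not reported here.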

Additional observations from a re-analysis of the deposited data

Results flagged for a closer look

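Fst was the only one of the 6 genes whose ratio of null over wild type lay below 0 on all 4 arrays of 4/5 somites and above 0 on all 4 arrays of 7/8 somites. The stage means differed by 0.38 on the log2 scale (7/8 minus 4/5 somites), and the difference was not tested, since each stage has 1 pool per genotype. The ratios did not overlap between stages for 18.3% of all probes. In 36 groups of 4 arrays (ratios and levels of the 6 genes) no array stood apart by Dixon's criterion.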

How the results depend on the processing

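The count of 3 of the 6 genes and 1845 probes passing the test depended on the processing more than the ratios did. With no background correction the counts were 0 genes and 345 probes (1.57% of those tested). With median centring they were 0 and 765 (3.49%), with 78.3% of these probes higher in null, against 58.6%. With no filter on dim probes they were 0 and 664 (1.61%), and with only the arrays with Cy3 on the null pool 0 and 1244 (5.68%). In these 4 settings 3, 5, 4 and 4 of the 6 genes had an unadjusted p under 0.05 by limma. Keeping uneven backgrounds gave 1 gene and 812 probes (3.71%). A stricter filter (1976 probes, 9.68%), the brightest probe of each gene (1678, 10.8%) and slide 2 alone (2118, 9.67%) each gave 5 genes. Slide as a block (13861 probes, 63.3%, technical spread only) also gave 5, Fst being the one left in each. The eBayes fit with trend and robust options called Nodal, Lefty2 and Gdf11 and neither Cer1 (adjusted p = 0.674) nor Lefty1 (adjusted p = 0.750), although every ratio is the same there; over the 22 settings their adjusted p reached down to 7.61e-08 and 0.000223. Aquantile after loess left every ratio and call as it was by construction and is not among the 22. Leaving out 1 array gave 0 to 5 genes and 942 to 2173 probes. The Fst mean turned negative on slide 2 alone (-0.0284), with only Cy3 on the null pool (-0.0835), and when the second array of either stage was left out (-0.00222 and -0.0201, against at most 0.0395 without any other array). The cause of these shifts was not tested. Slide 1 and slide 2 hold the original and the repeated arrays, so these alternatives coincide. No paired analysis was possible because the array numbers of the 2 stages belong to different pools and pair nothing, while null and wild type already share each array. Signal over background limits Lefty1 in both genotypes and Cer1 in wild type at 7/8 somites, and there is no second pool of any kind.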
